A study of Mus musculus with 86 samples.

Results

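The hippocampus of wild house mice was compared with the prefrontal cortex and the hypothalamus of the same animals. The hippocampus libraries of 28 animals were used, out of 86 libraries in the whole series, each set against the cortex library and the hypothalamus library that carry the same animal number. Animal 18 was left out because the extraction of RNA from its hypothalamus had failed. The mice were wild Mus musculus domesticus of both sexes from a free-living barn population, taken outside the breeding season, and no animal was treated or carried an engineered allele. By the labels, 7 females and 7 males were high in gregariousness and 7 females and 7 males were low, which are the study's large and small social network sizes, and all 4 groups entered the comparison of regions together. Regions were punched from frozen coronal sections and each library came from 1 region of 1 animal. For every gene, the value in the hippocampus was set against the mean of the values in the other regions of that animal, and also against each of them.

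The hippocampus is a fold of the medial cortex with a small number of neuron types laid out in fields. Granule cells of the dentate gyrus receive input from the entorhinal cortex and send mossy fibres to the pyramidal cells of field CA3, which project to those of CA1, and the small field CA2 lies between them. It is known for its part in spatial and episodic memory, for its high content of corticosteroid receptors and for the birth of granule cells in adult life. The prefrontal cortex shares its telencephalic origin and most of its classes of pyramidal and GABA neurons, whereas the hypothalamus arises from the diencephalon and holds neuroendocrine cells that release peptides.

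Counts on genes summed to between 33711824 and 53962278 in the hippocampus libraries and to between 33711824 and 81865801 in all 84 libraries used. The library most correlated with each of the 84, over the log2 levels of all genes tested, was from the same region in 84 cases. Levels are given as CPM, the counts of a library scaled to a common total with TMM factors, and differences on the log2 scale. Some libraries stood apart by genes known from other tissue. In the hippocampus Gabra6, a GABA receptor subunit of cerebellar granule cells, lay between 0 and 249 CPM, and Omp, the olfactory marker protein, reached 166 CPM in 1 cortex library. In bulk tissue, fewer cells of a type and less RNA per cell cannot be told apart.

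Of 18753 genes tested, 12711 (67.8%) differed between the hippocampus and the mean of the other regions at an adjusted p under 0.05 in edgeR's quasi-likelihood test with the animal as a block. Of all genes tested, 36.9% were higher in the hippocampus and 30.8% were lower. A difference from the mean of regions can come from 1 region alone, and 2978 genes were below the cortex and above the hypothalamus while 2998 were the other way round, each tested against its own region. Against both regions, 2625 genes were higher and 1972 were lower in the hippocampus. Genes that also differed 2-fold or more from each region are called hippocampus-enriched or hippocampus-depleted here. There were 174 enriched genes (0.928% of those tested) and 37 depleted genes (0.197%). Just inside the 2-fold limit lay Corin, at 1.01 above the hypothalamus on the log2 scale, and just outside it Lmo1, at 0.997 above the cortex. Of the enriched genes, 152 were protein coding.

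**Figure D1:**
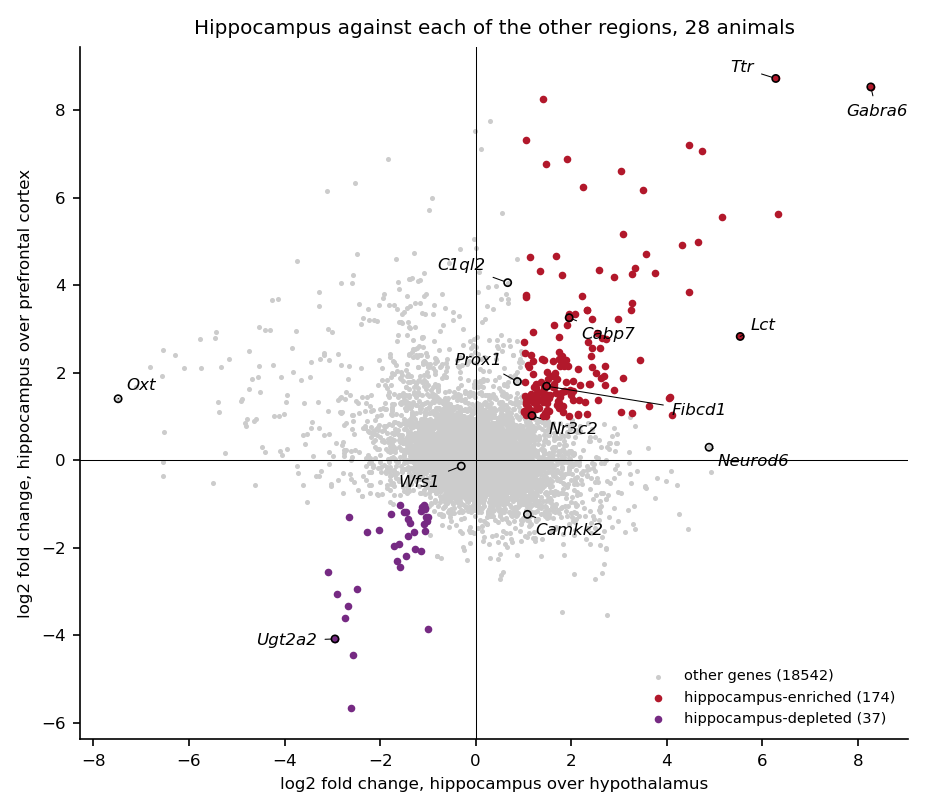
Log2 fold change of the hippocampus over the hypothalamus (x axis) and over the prefrontal cortex (y axis) for each gene tested, from 28 animals; the same hippocampus libraries enter both axes. The 174 enriched genes (red) fill the upper right beyond 1 on each axis and the 37 depleted genes (purple) the lower left, while Neurod6 and Oxt sit far from 0 on the x axis and Wfs1 sits near the origin.

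How far the enrichment held from animal to animal was read from the paired values. Of the 174 enriched genes, 78 were higher in the hippocampus than in both other regions of the same animal in 28 of 28 animals, where 1.16% of all genes tested were. In 38 enriched genes the lowest hippocampus library was above the highest of the 56 other libraries, a separation that 0.325% of all genes tested had. Another 6 enriched genes were above both regions in fewer than 20 animals. The SD over animals of the paired difference, hippocampus minus the mean of the other regions on the log2 CPM scale, had a median of 0.58 among the 129 enriched genes at 1 CPM or more and of 0.16 among all genes at that level.

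The markers by which the hippocampus is usually recognised were checked first. Prox1, the homeobox factor of dentate granule cells (chr1:190118035-190170714), had a lowest, median and highest level of 41.4, 48.3 and 81.2 CPM in the hippocampus, 11.8, 14.2 and 20.9 CPM in the cortex and 18.5, 27.1 and 54.7 CPM in the hypothalamus. It was above both other regions in 27 of 28 animals, with a difference of 1.34 ± 0.06 (SE) from their mean (adjusted p = 2.2e-30). C1ql2, a secreted protein of mossy fibre synapses (chr1:120340582-120343174), ran from 22.5 to 39.5 CPM in the hippocampus, 1.22 to 2.94 CPM in the cortex and 12.2 to 29.4 CPM in the hypothalamus. Its hippocampus libraries all lay above the cortex and overlapped with the hypothalamus, from which the difference was 0.67 against 4.06 from the cortex.

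Neurod6, a basic helix-loop-helix factor of telencephalic pyramidal neurons (chr6:55677822-55681263), averaged 98.5 ± 16.9 CPM in the hippocampus, 80.4 ± 14.7 CPM in the cortex and 3.52 ± 2.43 CPM in the hypothalamus (SD, n = 28). Its difference of 2.59 ± 0.11 (SE) from the mean came mostly from the hypothalamus, and the log2 fold change over the cortex was 0.30. Wfs1, an endoplasmic reticulum protein that marks CA1 pyramidal cells within the hippocampus (chr5:36966104-36989205), went the other way. Its level was 165 ± 15.1 CPM in the hippocampus, 182 ± 26.4 CPM in the cortex and 206 ± 45.4 CPM in the hypothalamus, below both in 20 of 28 animals, with a difference of -0.22 ± 0.05 (SE) (adjusted p = 5.5e-05). In the 14 males alone the Wfs1 difference was -0.16 with an adjusted p of 0.0534. Prox1, C1ql2 and Neurod6 were higher in the hippocampus than in each of the other regions on average, Wfs1 was not, and none of these markers met the 2-fold rule against both.

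**Figure D2:**
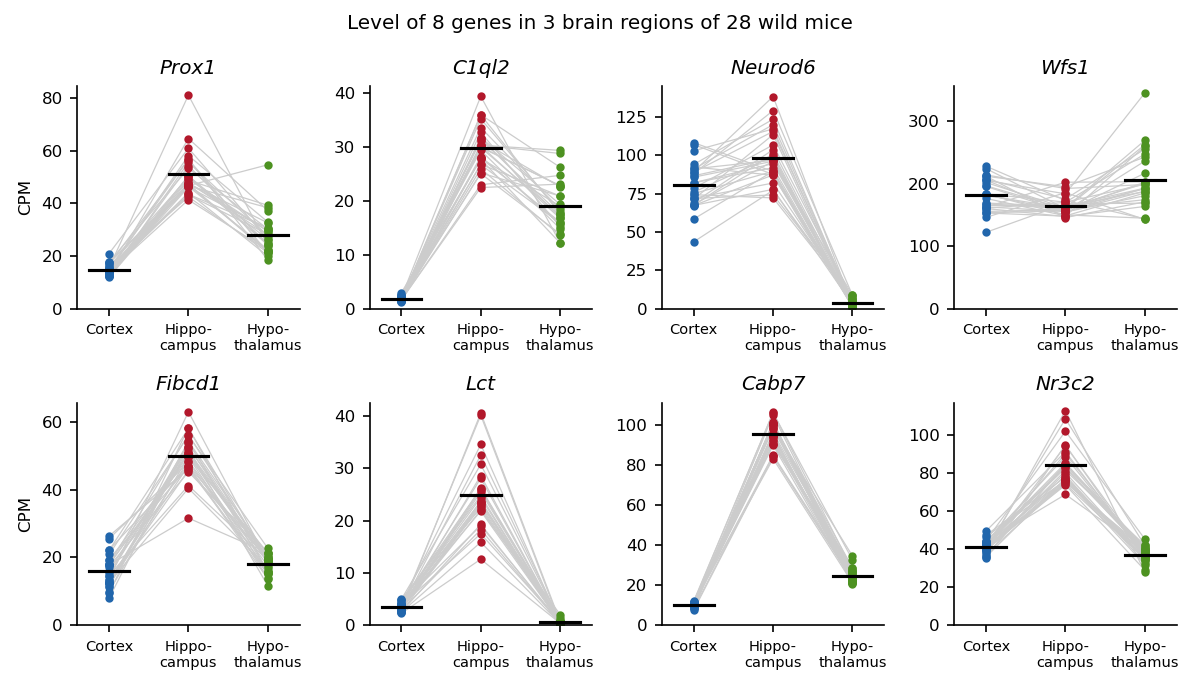
CPM of 8 genes in the prefrontal cortex, hippocampus and hypothalamus; each point is 1 library, grey lines join the libraries of 1 animal and black bars are means of 28 animals. Hippocampus points of Fibcd1, Lct, Cabp7 and Nr3c2 lie above every point of the other regions, those of C1ql2 overlap with the hypothalamus, and those of Wfs1 lie among the other regions.

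The steadiest enriched genes were those with the smallest SD of the paired difference. Cabp7, a calcium-binding protein related to calmodulin (chr11:4736892-4746778), ran from 83.2 to 106 CPM in the hippocampus, 7.44 to 12 CPM in the cortex and 20.6 to 34.6 CPM in the hypothalamus. The regions did not overlap, and its paired difference had an SD of 0.13 around a fitted log2 difference of 2.61 ± 0.03 (SE) (adjusted p = 1.3e-60). Rnf182, a ubiquitin ligase (chr13:43615710-43670945), had a lowest, median and highest level of 15, 18.9 and 32 CPM in the hippocampus against at most 8.48 CPM in the cortex and 13.2 CPM in the hypothalamus. Nr3c2, the mineralocorticoid receptor (chr8:76899442-77245012), gave 68.7, 81.9 and 113 CPM in the hippocampus, and its highest levels elsewhere were 49.5 CPM in the cortex and 45.2 CPM in the hypothalamus.

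Dgkg, a diacylglycerol kinase (chr16:22468461-22657221), ran from 75.7 to 122 CPM in the hippocampus and reached 67.9 CPM in the cortex. Pcdh20, a protocadherin (chr14:88464743-88471396), ran from 50.8 to 90.3 CPM in the hippocampus and reached 42.9 CPM in the hypothalamus. All of these were above both regions in 28 of 28 animals without overlap, and their log2 differences from the mean lay between 1.1 for Nr3c2 and 2.61 for Cabp7. Per kb of exon, the hippocampus level of Cabp7 was 36.4 CPM, that of Dgkg 10.2, that of Pcdh20 12.2, that of Nr3c2 13 and that of Rnf182 5.35 CPM. Further genes above both regions in every animal, chosen here after their values were seen, were Shisa6, an AMPA receptor partner (74.8, 14.3 and 21.5 CPM in hippocampus, cortex and hypothalamus), and Tanc1, a postsynaptic scaffold protein (102, 28.4 and 37 CPM). The gastrin-releasing peptide gene Grp (15.1, 7.37 and 3.42 CPM), the serotonin receptor gene Htr5b (3.73, 0.629 and 0.613 CPM) and the ephrin receptor gene Epha6 (50.3, 17.9 and 17.3 CPM) were also above both regions in every animal.

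**Figure D3:**
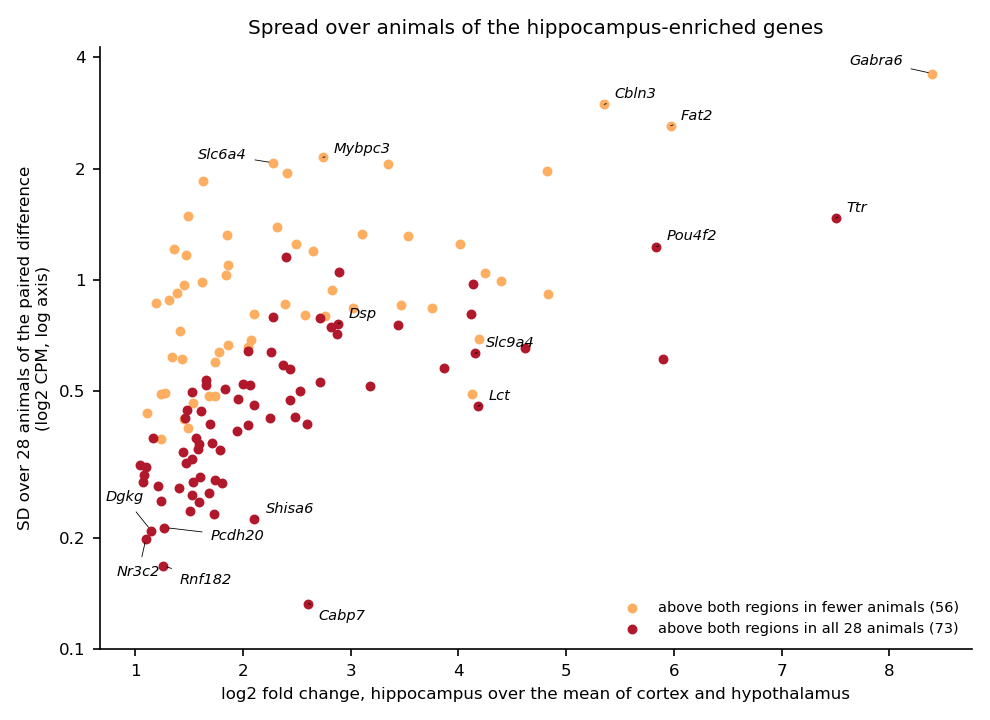
Log2 fold change of the hippocampus over the mean of cortex and hypothalamus (x axis) against the SD over 28 animals of the paired log2 CPM difference (y axis, log scale) for the 129 enriched genes at 1 CPM or more. Red points were above both regions in all 28 animals and orange points in fewer; Cabp7 lies lowest and Gabra6 highest.

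Start site sequences of a steady gene with a large fold, of a receptor gene and of the gene with the largest difference among the dentate granule cell markers are shown so that the members can be recognised. They are from RefSeq on build GRCm38.p6, on the gene's strand from 250 bases before to 50 bases after the start, and capitals mark every match of the E-box CANNTG, the letters that basic helix-loop-helix factors such as those of the Neurod family can bind. The motif reads alike on both strands, and 72.1% of the 27025 genes with such a sequence held at least 1 match. Cabp7 lies on the minus strand with 1 match, Nr3c2 on the plus strand with 1 match and Lct on the minus strand with 2 matches. A match is a description of the letters and not a bound site.
Cabp7 (chr11:4747130-4747429): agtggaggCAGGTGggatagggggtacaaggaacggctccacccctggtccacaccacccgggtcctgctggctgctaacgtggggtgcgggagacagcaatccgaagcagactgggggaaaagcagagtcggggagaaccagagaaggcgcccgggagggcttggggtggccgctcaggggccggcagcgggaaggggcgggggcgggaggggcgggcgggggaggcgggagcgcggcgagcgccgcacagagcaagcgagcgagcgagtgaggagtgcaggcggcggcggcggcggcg
Nr3c2 (chr8:76902080-76902379): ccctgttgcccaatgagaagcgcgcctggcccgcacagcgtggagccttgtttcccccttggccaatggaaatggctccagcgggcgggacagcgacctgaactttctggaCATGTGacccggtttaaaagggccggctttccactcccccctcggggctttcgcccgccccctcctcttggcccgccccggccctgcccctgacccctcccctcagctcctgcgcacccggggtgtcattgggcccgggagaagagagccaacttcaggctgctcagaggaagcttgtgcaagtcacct
Lct (chr1:128328269-128328568): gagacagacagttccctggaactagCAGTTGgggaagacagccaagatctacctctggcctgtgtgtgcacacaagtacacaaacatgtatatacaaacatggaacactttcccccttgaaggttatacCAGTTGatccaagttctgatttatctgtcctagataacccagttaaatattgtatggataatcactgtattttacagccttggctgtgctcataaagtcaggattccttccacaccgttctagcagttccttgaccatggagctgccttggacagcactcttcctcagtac

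Markers of the neurons of each hippocampal field were examined next. Beside the counts of this and the following lists, 36.9% of all genes tested were higher and 30.8% were lower. For dentate granule cells, of 9 markers 7 were higher than the mean of the other regions, 1 was lower and 1 did not pass the test. Their median log2 difference was 1.34 beside 0.02 over all genes tested. Against each region by test, 6 were above both and 3 were below the cortex and above the hypothalamus. Lct, the gene of lactase, ran from 12.6 to 40.6 CPM in the hippocampus, with the cortex at 2.24 to 4.92 CPM and the hypothalamus at 0.21 to 2.0 CPM. Its hippocampus libraries stood clear of all others, with a difference of 4.18 ± 0.08 (SE). Dsp, the desmosomal protein desmoplakin, was at 12.8 CPM in the hippocampus, 1.38 in the cortex and 2.73 in the hypothalamus, and Tdo2, the tryptophan-degrading dioxygenase, at 2.83, 0.955 and 0.815 CPM in the same order. Both were above both regions in 28 of 28 animals. Npnt, an extracellular matrix protein, was the lowest of the list, at 15.2, 30.7 and 11.1 CPM.

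Of 6 CA1 markers, 5 were higher and 1, Wfs1, was lower, but only 2 of the list were above both regions by test, with a median of 0.70. Fibcd1, a receptor for acetylated sugars, had a lowest, median and highest level of 31.6, 50.6 and 63 CPM in the hippocampus and did not reach 31.6 CPM in any other library. For CA3, 4 of 7 markers were higher and 2 lower, with a median of 0.12. The iodide-recycling enzyme gene Iyd led the CA3 list at 1.49, 0.161 and 0.296 CPM in hippocampus, cortex and hypothalamus, and Spock1, a matrix proteoglycan, ended it at 202, 298 and 179.5 CPM. Of 7 CA2 markers tested, 2 were higher, 3 lower and 2 not called, with a median of -0.04. Rgs14, a regulator of G protein signalling, had a log2 difference of 0.84 and Map3k15, a kinase, of -0.57. Of 5 markers of mossy cells, the excitatory neurons of the dentate hilus, 3 were higher and 2 lower, from 0.35 for the receptor gene Calcrl to -1.12 for the dopamine receptor gene Drd2.

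Genes of corticosteroid signalling included both genes with a 2-fold enrichment and genes with none. Hsd11b1, the enzyme that regenerates active glucocorticoid inside cells, had a lowest, median and highest level of 24.1, 33.7 and 47.9 CPM in the hippocampus, 9.34, 17.1 and 24 CPM in the cortex and 5.42, 12.2 and 19 CPM in the hypothalamus. It was above both in 28 of 28 animals, with a difference of 1.24 ± 0.05 (SE), and like the mineralocorticoid receptor gene Nr3c2 it met the enrichment rule. Both lie close to the 2-fold limit over the cortex: Hsd11b1 was at 0.84 in males alone, at 0.93 without the animals with Omp at 10 CPM or more and at 0.84 in the animals with Gabra6 under 1 CPM, and Nr3c2 at 0.98 in females alone. Fkbp5, a chaperone of steroid receptors, was higher by 0.32 and the steroid-induced kinase gene Sgk1 by 0.20. Nr3c1, the glucocorticoid receptor, lay between the other regions at 120.2 CPM in the hippocampus, 148 in the cortex and 97.2 in the hypothalamus, and its difference from their mean was 0.01 ± 0.02 (SE) (adjusted p = 0.842) and took the other sign with RLE scaling, at -0.00706.

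Genes of neurotrophins and their receptors moved both ways. Ntf3, neurotrophin 3, ran from 1.89 to 4.39 CPM in the hippocampus, 0.418 to 1.23 CPM in the cortex and 0.158 to 0.926 CPM in the hypothalamus without overlap. Bdnf, brain-derived neurotrophic factor, was higher by 0.75 on the log2 scale. Of the receptor genes, Ntrk3 was higher by 0.06, Ntrk2 differed by -0.26 and Ngfr by -0.75. All 7 genes passed the test, 4 higher and 3 lower.

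Of 20 adhesion genes, 13 were higher and 6 lower, and the 3 enriched ones code for desmosome proteins rather than for classical cadherins. The desmosome genes Dsc2, Dsg2 and Jup of the same list were not enriched. The desmosomal cadherin gene Dsc3 was at 2.69, 0.104 and 0.80 CPM in hippocampus, cortex and hypothalamus, and the plakophilin gene Pkp2 at 22.6, 5.95 and 9.9 CPM. Together with Dsp, each was above both regions in 28 of 28 animals. Among cadherins the differences ran down to -0.49 for Cdh4.

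The C1q-like proteins are secreted organisers of synapses, and their genes had different patterns. Beside C1ql2, with the differences given for the markers, C1ql3 was at 104 CPM in the hippocampus, 129 in the cortex and 25.9 in the hypothalamus, between the other regions, with a difference of 0.85 ± 0.05 (SE). C1ql4 was low everywhere and nearly missing from the cortex, at 0.901, 0.025 and 0.955 CPM, and its log2 difference from the hypothalamus was -0.03. C1ql1 had a difference of -0.03 ± 0.04 (SE) (adjusted p = 0.499), with 12.2, 8.67 and 18.1 CPM.

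Kainate receptors and other proteins of the mossy fibre synapse gave 9 genes higher, 3 lower and 2 not called of 14, with a median of 0.27. Among the receptor subunits, Grik1 differed by 0.24, Grik2 by 0.19, Grik4 by -0.12 and Grik3 by -0.55, whereas Grik5 at -0.04 did not pass. Grik3 was below both regions in 28 of 28 animals, at 109.8 CPM in the hippocampus, 179.8 in the cortex and 143 in the hypothalamus. The auxiliary subunit gene Neto1 was higher by 0.31, and Neto2 at -0.04 did not pass. Slc30a3, the zinc transporter of mossy fibre vesicles, was higher by 1.12 against the mean and yet lower than the cortex, at 99.2, 165 and 13.5 CPM. Synpr, a vesicle protein, was higher by 0.35, the calcium sensor gene Syt7 by 0.37 and Bdnf by 0.75, and Nrxn3, a presynaptic neurexin, was at -0.33, below both regions in 27 animals.

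AMPA and NMDA receptor genes were higher in 8 of 11 cases and lower in 3. The NMDA subunit gene Grin2a led with 1.25, at 39.7, 35 and 8.37 CPM in hippocampus, cortex and hypothalamus, and Grin2d was lowest at -0.29. Of 7 metabotropic glutamate receptor genes, 3 were higher and 1 lower, beside 36.9% and 30.8% of all genes tested. Their median was 0.14, and Grm8 had the lowest difference, -0.14. GABA-A receptor subunits gave 7 higher and 3 lower of 12. Gabra5, the subunit of extrasynaptic receptors in pyramidal cells, ran from 62.8 to 104 CPM in the hippocampus, 37.6 to 55.9 CPM in the cortex and 24.9 to 38.9 CPM in the hypothalamus, so that the hippocampus overlapped with neither region. Gabrg3 was the opposite case, at 23.5, 40.1 and 49.5 CPM, and was below both regions in 28 of 28 animals.

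Calcium and calmodulin genes, which act downstream of these receptors, mostly lay between the other regions. Of 19, 18 were higher than the mean and 1 was lower. By test 16 were below the cortex and above the hypothalamus, beside 15.9% of all genes tested. The adenylyl cyclase gene Adcy1 had the largest difference, 1.13, at 964, 1148 and 173 CPM, and the kinase gene Camkk2 the smallest, -0.08 (adjusted p = 0.0378), at 205, 483 and 97.3 CPM. Without the animal as a block the Camkk2 difference had an adjusted p of 0.058.

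**Figure D4:**
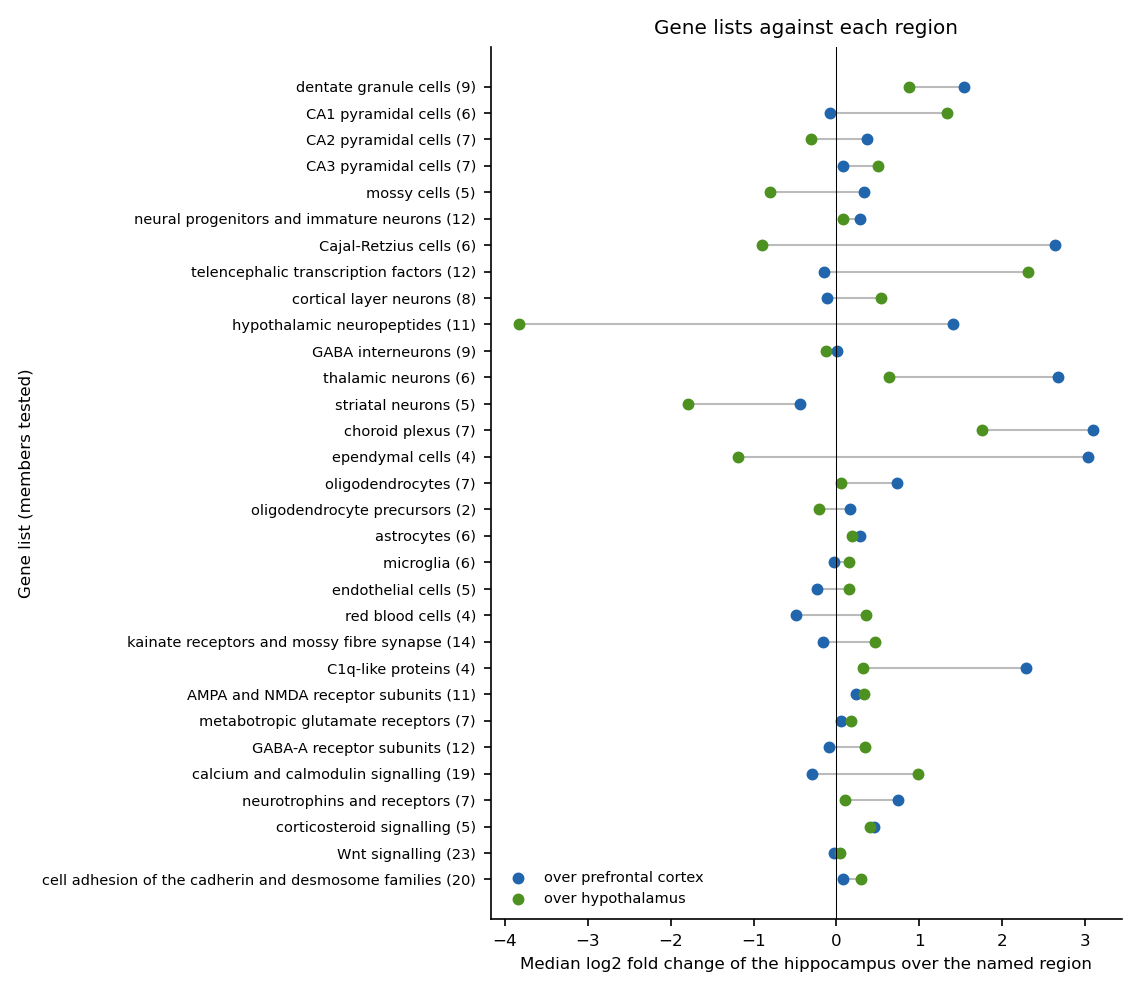
Median log2 fold change of each gene list for the hippocampus over the prefrontal cortex (blue) and over the hypothalamus (green); the number of members tested stands in parentheses. Dentate granule cell, thalamic and choroid plexus lists lie to the right of 0 for both regions, striatal neurons to the left for both, and hypothalamic neuropeptides at opposite sides.

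Transcription factors of the telencephalon set the hippocampus apart from the hypothalamus more than from the cortex. All 12 were higher than the mean of the other regions, with a median log2 fold change of 2.31 over the hypothalamus and -0.14 over the cortex. Neurod6 had the largest difference of the list and Bcl11b the smallest, 0.39. Of 8 markers of cortical layers, 4 were higher and 4 lower, from 1.56 for the factor Fezf2 to -0.52 for the upper-layer factor Cux2. Hypothalamic peptide genes were lower in 10 of 11 cases, and Pomc did not pass at -0.46. Pomc passed as lower with DESeq2, at -0.60 (adjusted p = 0.00746), in females alone, at -0.87 (adjusted p = 0.027), and in the animals with Gabra6 under 1 CPM, at -1.27 (adjusted p = 0.0015). Oxt, oxytocin, had the lowest difference, -3.04, at 0.975, 0.36 and 173 CPM, and was thus higher in the hippocampus than in the cortex by 1.41. Summed over the list, hippocampus libraries held 13.8 to 113 CPM, cortex libraries 18.3 to 29.6 CPM and hypothalamus libraries 169 to 1669 CPM.

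Markers of GABA interneurons moved both ways, 3 higher and 4 lower of 9, between 0.87 for parvalbumin and -1.0 for the factor Lhx6. In the animals with Gabra6 under 1 CPM the difference of Pvalb was 0.39. All 5 striatal markers were lower, from -1.05 for Ppp1r1b to -1.67 for the adenosine receptor gene Adora2a. Among 12 genes of progenitors and immature neurons, 4 were higher and 5 lower. The bHLH factor gene Neurod1 led at 2.1, with 11, 14.4 and 101 CPM as its lowest, median and highest hippocampus levels, and its level moved with that of Gabra6 as described for that gene. Eomes, a factor of intermediate progenitors, ended the list at -1.64, or at -3.25 in the animals with Gabra6 under 1 CPM. All 6 markers of Cajal-Retzius cells were higher than the mean, from 2.54 for Lhx1 to 0.20 for Ndnf, although 4 of them were above the cortex and below the hypothalamus. Their median was 0.63 in all animals and 0.41 in the animals with Gabra6 under 1 CPM. The difference of Lhx1 was 1.21 in the animals with Gabra6 under 1 CPM, and that of Ndnf 0.08 (adjusted p = 0.475) in females alone. In Wnt signalling 12 of 23 genes were higher and 6 lower. Tcf7l2, a nuclear effector that is also on the list of thalamic markers, was at 1.9 and the secreted antagonist gene Sfrp1 at -0.71.

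Members of the glial and vascular lists differed by less than 2-fold from the mean of the other regions. All 7 oligodendrocyte genes were higher than the mean, with Mog, a protein of the myelin surface, highest at 0.43, and the median of the list was 0.73 over the cortex and 0.05 over the hypothalamus. Precursor markers did not pass, with 0.02 for Pdgfra and -0.07 for Cspg4. Astrocyte genes ran from 0.72 for Gfap to -0.20 for Aldh1l1, microglial genes from 0.19 for P2ry12 to -0.23 for Cx3cr1 and endothelial genes from 0.12 for Ly6c1 to -0.18 for Flt1. Of 4 red cell genes, 1, Hba-a1 at -0.39, passed, and Alas2 was at 0.02.

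Genes of the choroid plexus, the epithelium that makes cerebrospinal fluid and borders the hippocampus, were among the largest differences. Ttr, the thyroid hormone carrier transthyretin, had a lowest, median and highest level of 258, 709.9 and 1438 CPM in the hippocampus, 0.169, 0.976 and 409 CPM in the cortex and 0.976, 5.98 and 274 CPM in the hypothalamus. Hippocampus libraries were above their own cortex and hypothalamus in 28 of 28 animals, although 1 cortex library and 1 hypothalamus library reached into the hippocampus range. The folate receptor gene Folr1 was at 5.08, 0.292 and 0.464 CPM and 5 of 7 choroid plexus markers were enriched. Summed over the list, choroid plexus genes lay at 288 to 1521 CPM in the hippocampus, 5.07 to 449 CPM in the cortex and 38.8 to 331 CPM in the hypothalamus. Clic6 had the smallest difference of that list, 0.88, or 1.64 in the animals with Gabra6 under 1 CPM, and Aqp1 was at 1.13. The 4 ependymal markers were higher than the cortex and lower than the hypothalamus, with differences from the mean between 0.37 for Dynlrb2 and 1.72 for Tmem212. Thalamic markers, whose tissue lies below the hippocampus, were higher in 6 of 6 cases, from 0.54 for Ramp3 to 4.13 for the factor Lhx9. Ramp3 did not pass in males alone, at 0.22 (adjusted p = 0.31), or in the animals with Gabra6 under 1 CPM, at 0.39 (adjusted p = 0.0954). Prkcd, a protein kinase C gene and with Lhx9 the enriched part of that list, was under the 2-fold limit over the hypothalamus in the same settings, at 0.58 and 0.92. Summed over the list, thalamic markers lay at 249 to 566 CPM in the hippocampus, 97.7 to 165 CPM in the cortex and 115 to 1041 CPM in the hypothalamus. The part of such tissue in other results was not tested.

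The 15 enriched genes with the largest smaller difference were Gabra6, Ttr, Fat2, Cbln3, Gm26644, Pou4f2, Rtl3, Slc9a4, Kcne2, Folr1, Krt2, Fermt1, Slc4a5, Crtam and Pou4f1. Of these, Slc9a4, a sodium-proton exchanger, ran from 5.47 to 14.7 CPM in the hippocampus and did not exceed 1.64 CPM elsewhere. Krt2, a keratin, ran from 1.97 to 6.16 CPM and did not exceed 1.15 CPM elsewhere. The noncoding Gm26644 at 1.1, 0.00557 and 0.0409 CPM and the retrotransposon-derived Rtl3 at 1.03, 0.0303 and 0.0498 CPM were low but separate from all other libraries. Fermt1, an integrin adaptor gene, was at 2.64, 0.21 and 0.254 CPM, the potassium channel subunit gene Kcne2 at 2.2, 0.146 and 0.189 CPM and the bicarbonate transporter gene Slc4a5 at 4.37, 0.282 and 0.483 CPM. The POU factor genes Pou4f1, at 4.26, 0.116 and 0.553 CPM, and Pou4f2, at 2.36, 0.0134 and 0.103 CPM, were above both regions in 28 of 28 animals. Both belong to a list of midbrain factors set up after the values were seen. Ttr and Folr1 are choroid plexus markers, and Gabra6, Fat2 and Cbln3 are on a list of cerebellar granule cell genes. The part of other tissue in these levels was not tested.

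The least steady enriched genes were Gabra6, Cbln3, Fat2, Mybpc3 and Slc6a4, with SDs of the paired difference between 2.07 and 3.62. Gabra6 was under 1 CPM in 6 hippocampus libraries, where its highest level was 0.19 CPM, and ran from 1.48 to 249 CPM in the other 22. It stayed at or under 0.402 CPM in all cortex and hypothalamus libraries. Cbln3, a cerebellin, had a lowest, median and highest hippocampus level of 0.541, 21.9 and 430.5 CPM, and Fat2, a giant protocadherin, one of 0.355, 13.7 and 225 CPM. Animal 23 held the most Gabra6, at 249 CPM, followed by animal 7 at 95.5 and animal 30 at 78.4 CPM.

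Since Gabra6 fell into separate ranges, its relation to other genes was described within the 22 hippocampus libraries at 1 CPM or more, on the log2 scale. The 7 genes were chosen after the values were seen, so no test is given. Cbln3 had a Pearson r of 0.99 and a Spearman rho of 0.99, and Neurod1 an r of 0.91 and a rho of 0.92. Grin2c, an NMDA receptor subunit, Homer3, a scaffold protein, and Il16, a cytokine precursor, had r of 0.90, 0.91 and 0.86 and rho of 0.89, 0.95 and 0.85. Without the 2 libraries farthest from the median of Gabra6, r of these 5 genes lay between 0.87 for Il16 and 0.99 for Cbln3. Lct had an r of -0.11 and a rho of -0.10, and Prox1 an r of -0.10 and a rho of -0.02.

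**Figure D5:**
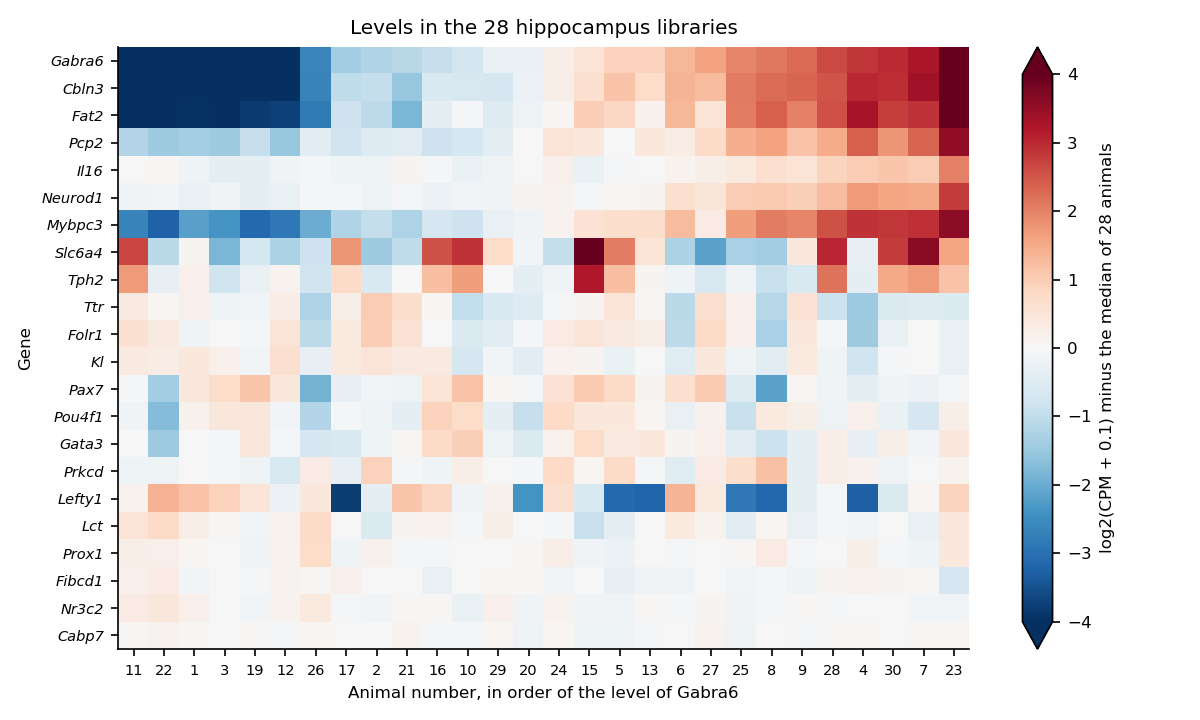
Level of 22 genes in the 28 hippocampus libraries, as log2(CPM + 0.1) minus the gene's median over animals, with animals (x axis) in order of Gabra6. The rows of Gabra6, Cbln3, Fat2, Pcp2 and Mybpc3 turn from blue to red together. Those of Il16 and Neurod1 are pale at low Gabra6 and redden only at high Gabra6. Slc6a4 with Tph2 and Lefty1 follow other animals, and the rows of Lct, Prox1, Fibcd1, Nr3c2 and Cabp7 stay pale.

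Lists of cerebellar cell markers were set up after these values were seen. All 7 of 7 granule cell genes were higher than the mean, 3 of them enriched, and 4 of 5 Purkinje cell genes were higher, 2 of them enriched. Summed, the granule cell genes lay at 64 to 1634 CPM in the hippocampus, 26.4 to 57.6 CPM in the cortex and 168 to 325 CPM in the hypothalamus, a sum that also holds factors of the Zic family. The regions were then compared in only the 6 animals with Gabra6 under 1 CPM in the hippocampus. Of these, animals 1, 3 and 19 were females and animals 11 and 22 males high in gregariousness. Animal 12 was a male low in gregariousness, and no low female was among them. Low Gabra6 and high gregariousness therefore cannot be told apart in values from this fit, here or elsewhere. In those animals 174 genes were enriched. Of the enriched genes of all animals, 161 could be tested there and 126 stayed enriched. Of the 78 enriched genes above both regions in every animal, 77 could be tested and 72 stayed enriched. All of these had been called over all animals, these 6 included, so calls that stayed are not a separate result. Cabp7 had a difference of 2.7, Nr3c2 of 1.26, Lct of 4.6 and Neurod1 of 1.47, against 2.1 in all animals. The difference of Cbln3 was -0.27 (adjusted p = 0.196), that of Crtam, a cell adhesion receptor gene, 0.37 (adjusted p = 0.189) and that of Fat2 0.88 (adjusted p = 0.047). Mybpc3, a sarcomere protein gene, was lower in the hippocampus of these animals, with a difference of -0.94 (adjusted p = 0.00358), whereas over all animals it was higher by 2.74. Of the lists, 5 of 5 enriched choroid plexus genes and 3 of 3 enriched dentate genes stayed so. The choroid plexus count was 5 of 5 in females alone and 4 of 5 in males alone. Gabra6, by which these animals were chosen, was not tested in them, so counts over the cerebellar lists are not given. Genes that moved with Gabra6, such as Cbln3 and Fat2, are low in these animals through that choice. Their values there are therefore not a separate result. Among other named genes, Grik1 was at 0.13 (adjusted p = 0.0677), Grik4 at -0.04 (adjusted p = 0.497) and Npnt at -0.13 (adjusted p = 0.164), and none of these passed. Camkk2 (adjusted p = 0.314), Wfs1 (adjusted p = 0.0502), Grm8 (adjusted p = 0.104), Dynlrb2 (adjusted p = 0.0603) and Ly6c1 (adjusted p = 0.959) did not pass either. Cx3cr1 was at -0.16, Ndnf at 0.32, Cyp2a5 at -1.87 and Ttc39a at -0.56, each over 1.5 times from its value in all animals.

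Lists chosen after the values were seen showed further genes that varied by animal. Of 9 midbrain factor genes, among them Otx2, which is also on the choroid plexus list, 7 were enriched. All 7 stayed so in the animals with little Gabra6, which were part of the fit that called them. In females alone 7 stayed enriched and in males alone 6. Summed, the 9 genes ran from 18.1 to 98.7 CPM in the hippocampus, 6.64 to 15.1 CPM in the cortex and 9.04 to 31.3 CPM in the hypothalamus. The serotonin transporter gene Slc6a4 was under 1 CPM in 18 hippocampus libraries and reached 11.6 CPM in animal 15, and it was above both regions in 17 of 28 animals. Tph2, the enzyme of serotonin synthesis, reached 10.2 CPM. In the animals with little Gabra6, Slc6a4 was not tested and Tph2 had a difference of 0.99, with 0.57 over the cortex. Tph2 met the enrichment rule in males alone, at 1.71 over the cortex, and not in females alone, at 0.45. Nor did it without the animals with Omp at 10 CPM or more, at 0.94 over the cortex. Lefty1, a secreted antagonist of Nodal, fell into separate ranges. It was at or under 0.46 CPM in 7 hippocampus libraries and between 1.8 and 7.6 CPM in the other 21, with none in between. The same 7 animals were also low elsewhere, at 0.12 to 0.31 CPM in the cortex and 0.13 to 0.25 CPM in the hypothalamus. Lefty1 reached 1.05 CPM in each of these regions in other animals, some of which overlapped with the 7. Its neighbour on chromosome 1, Lefty2, ran from 0.455 to 2.6 CPM and was above both regions in 28 of 28 animals.

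Depleted genes were fewer, and only 8 of 37 were below both regions in every animal, where 0.624% of all genes tested were. Sp8, a zinc finger factor of forebrain interneurons, ran from 1.02 to 1.79 CPM in the hippocampus, 2.79 to 14.6 CPM in the cortex and 2.71 to 11.5 CPM in the hypothalamus, without overlap. Prss56, a serine protease gene, was at 0.601, 3.6 and 4.92 CPM, and Hfe2, the hemojuvelin gene, at 0.445, 2.2 and 1.4 CPM, each below both regions in 28 of 28 animals. Scgn, the calcium-binding protein secretagogin, was below both in 25 animals and the receptor gene Tnfrsf8 in 27. Besides Sp8, the kinase gene Dclk3 (26.6, 55.5 and 58.6 CPM) and the copine gene Cpne5 (54.9, 134 and 111 CPM) had no overlap, as had 0.064% of all genes tested, and are named here after their values were seen.

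The other leading depleted genes were those known from the olfactory mucosa, whose list was set up after the values were seen. Omp ran from 0.477 to 166 CPM in the cortex, 0.965 to 31.1 CPM in the hypothalamus and 0.166 to 4.0 CPM in the hippocampus, and was at 10 CPM or more in 7 cortex and 5 hypothalamus libraries. The detoxifying enzyme genes Ugt2a2, Cyp2a5, Cyp2g1 and Aox2 reached 75.2, 106, 45.9 and 52.3 CPM in single cortex libraries and were below both regions in 13, 18, 13 and 11 animals. In the remaining animals at least 1 of the other regions was not above the hippocampus. With DESeq2 the difference of Aox2 was -0.20 (adjusted p = 0.637) against -1.81 in edgeR, and that of Ugt2a2 -1.65 against -3.51. With limma Aox2 was at -0.28 (adjusted p = 0.593), Ugt2a2 at -1.01 (adjusted p = 0.174), Cyp2g1 at -1.38 (adjusted p = 0.0556) against -3.17, and Cyp2a5 at -1.81 against -2.98. A fit without the 8 animals with Omp at 10 CPM or more in any library was added after the values were seen. In it, 32 of the 37 depleted genes could be tested and 23 stayed depleted. Of the 8 olfactory mucosa genes, 5 could be tested, and 2 stayed depleted, among them Omp, by which the animals were chosen. Cyp2a5 was at -1.31, and Ugt2a2, Cyp2g1 and Aox2 were not tested there.

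Whether the hippocampus contrast itself depended on sex or gregariousness was tested as an interaction. No gene passed for either, with 0 of 18753 genes for sex and 0 for gregariousness in edgeR, and also 0 with DESeq2 and limma. Before adjustment, p was below 0.05 in 814 genes (4.34%) for sex and in 1768 (9.43%) for gregariousness. The smallest p for sex was that of Gabrq, a GABA-A receptor subunit gene, whose contrast was larger in males by 0.63 ± 0.15 (SE, adjusted p = 1.0). Its hippocampus level was 3.99 ± 0.812 CPM in 14 females and 5.1 ± 1.7 CPM in 14 males (SD), ranges that overlapped. The other regions differed too, with 1.35 ± 0.368 CPM in females and 1.06 ± 0.363 CPM in males in the cortex. In the hypothalamus it was at 82.5 ± 10.6 CPM in females and 69.4 ± 16.4 CPM in males. The contrast of Gabrq was negative, so a larger one is less negative. The contrast of Fam196a was larger in males by 0.24 and that of 4931440F15Rik by 0.66.

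For gregariousness the smallest p was that of Ttc39a, whose contrast was larger in animals low in gregariousness by 0.45 ± 0.10 (SE, adjusted p = 0.471). Its hippocampus level was 5.59 ± 0.919 CPM in low and 5.04 ± 1.13 CPM in high animals (SD, n = 14 each). Kcnip1, a potassium channel partner gene, had 0.24 and the repressor gene Hes3 1.25, with the same adjusted p. Among the 174 enriched genes, 37 (21.3%) had an unadjusted p under 0.05 for gregariousness, beside 9.43% of all genes tested. The contrast in low animals was larger in 19 and smaller in 18 of these, and none passed adjustment. Gabra6 and Cbln3 are 2 of the 37. Gabra6 had a median of 21.8 CPM (from 0.19 to 249) in the hippocampus of low animals and of 3.95 CPM (from 0 to 78.4) in that of high animals. For sex, 19 of the enriched genes (10.9%) had an unadjusted p under 0.05, beside 4.34% of all genes tested. The contrast in males was larger in 5 and smaller in 14 of these, and none passed adjustment.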

How the data were processed

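The authors mapped paired-end reads to mouse build GRCm38 with STAR, counted reads per gene and deposited these counts without normalization. The counter is HTSeq in the study's methods, and its strand setting is not given in the sources used here, so reads of overlapping and antisense genes cannot be told apart. The table held 33711824 to 81865801 counts per library, and animals were the replicates.

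For 28 animals with libraries of all 3 regions, genes were kept by filterByExpr (minimum count 10, total 15) and fitted by edgeR 4.0.16 in R 4.3.3 with TMM scaling, region and animal number as a block. The contrast was the hippocampus minus the mean of the other regions, with Benjamini-Hochberg adjustment over all genes tested and a threshold of 0.05. Samples of 1 animal share its number in the labels, and their deviations from the region means correlated in every animal (lowest r = 0.229). Log2 CPM used a prior count of 2. Symbols and positions were those of GENCODE vM21, in which 34490 of 35275 genes were found. Members and gene lists were chosen with earlier results of these data known. Named genes were the 4 given markers, the 15 most enriched and 10 most depleted genes, the 5 steadiest and 5 least steady enriched genes, the 3 smallest p of each interaction, the ends of each list and every C1q-like, kainate receptor and corticosteroid gene. The code was tested on simulated data. Avpr1b, Fev, Hba-a2 and Kiss1 were not analysed here, and some genes at the ends of lists are not reported here. Some lists and fits were added after values were seen, as stated beside them. Alternatives were DESeq2 1.42.0, limma 3.58.1 (voom), RLE scaling, other filters and folds, and fits without certain animals.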

Additional observations from a re-analysis of the deposited data

How the results depend on the processing

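The fit without the replicate block gave 11260 genes in place of 12711 and changed no count of enriched or depleted genes by over 1.5 times (170 and 42). Enriched and depleted genes numbered 463 and 183 without a filter, and 105 and 15 when the 2-fold difference itself was tested (glmTreat), 40 and 8 at a log2 fold change of 2, and depleted genes 19 with the stricter filter. Fewer or more genes tested and the height of the threshold are part of these settings. Leaving out animal 12 or 19 gave 12547 to 12564 genes, 173 enriched, 39 to 40 depleted and 0 in each interaction test. With only the 6 animals with Gabra6 under 1 CPM, an alternative chosen after seeing the data, 8445 genes differed. That fit had fewer animals, all but animal 12 high in gregariousness. DESeq2, limma, RLE scaling, either sex alone and animal 18 kept moved no count of differing or enriched genes by over 1.5 times, and the interaction counts were 0 under all alternatives run for them. The median of all genes was 0.02 with TMM and 0.0030 with RLE scaling.

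Of 1459 contrasts of 114 named genes recomputed under these alternatives, 1408 kept their direction and side of the threshold, 32 lost the call, 4 gained one and 15 turned. The calls lost were without the replicate block Camkk2 and Ly6c1, without a filter Ly6c1, with the stricter filter Ly6c1, with DESeq2 Aox2, with limma Ugt2a2, Cyp2g1, Ly6c1 and Aox2, in females Camkk2, Ndnf and Ly6c1, in males Hes3, Camkk2, Grik4, Dynlrb2, Wfs1, Ramp3 and Ly6c1, in the animals with Gabra6 under 1 CPM Grik1, Grm8, Camkk2, Grik4, Crtam, Dynlrb2, Wfs1, Npnt, Ramp3 and Ly6c1, without the animals with Omp at 10 CPM or more Hes3, Camkk2 and Ly6c1. Those that turned were Alas2 at -0.0411 without the replicate block, Nr3c1 at -0.00706 with RLE scaling, Nr3c1 at -0.00443 without a filter, Nr3c1 at -0.00804 with the stricter filter, Nr3c1 at -0.00704 with DESeq2, Pdgfra at -0.00627 and 4931440F15Rik at -0.247 in females, Nr3c1 at -0.0108 and Alas2 at -0.0619 in males, Mybpc3 at -0.94, Grik5 at 0.036, Hes3 at -0.855, Cspg4 at 0.0239, Cbln3 at -0.266 and C1ql1 at 0.0634 in the animals with Gabra6 under 1 CPM. The cause was not tested. Genes under about 1 CPM, such as C1ql4, are near what the depth can show.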
